A study of Mus musculus with 48 samples.

Results

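Liver was set against kidney, hypothalamus, testis and ovary in mouse RNA measured on Affymetrix arrays. The liver arrays were taken by the tissue named in their titles and gave 6 of the 24 RNA samples, or 12 of the 48 arrays. They form 2 groups, Liver Male and Liver Female, of 3 RNA samples, and every RNA sample was run on 2 arrays. The other groups are Kidney Male, Kidney Female, Hypothalamus Male, Hypothalamus Female, Testis and Ovary, again of 3 RNA samples. Per the labels the tissues were healthy, the RNA was bought from a supplier, and each RNA sample came from a pool of 10 animals. Strain and age are not in the labels, and no treatment is named. Testis and ovary come from 1 sex each, and liver, kidney and hypothalamus from both. A pool averages its animals, so the spread reported here is that between pools. The labels describe the RNA as polyA-selected for liver, kidney, testis and ovary and as total RNA for hypothalamus, while another field gives total RNA for every sample. In the comparison of liver with hypothalamus, tissue and RNA preparation cannot be told apart.

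The liver is built mainly of hepatocytes, which secrete most of the proteins of blood plasma, make urea from ammonia, release and store glucose, turn cholesterol into bile acids and modify drugs and hormones for excretion. Sinusoidal endothelium, resident macrophages called Kupffer cells, vitamin A-storing stellate cells and bile duct cells make up most of the rest. A small set of transcription factors, the HNF1, HNF4, FOXA and C/EBP families and several nuclear receptors, is known to maintain the hepatocyte programme.

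Values are scaled intensities of a probe set, a group of short probes for one transcript, and each gene was read by its brightest probe set that carries 1 gene symbol, which gave 12393 genes. An intensity given for an RNA sample is the mean of its 2 arrays taken on the log2 scale. Differences are on the scale log2(intensity + 48.3), which shrinks those of dim genes, and are given with the SE of a limma fit over all 24 RNA samples. A gene was called at an adjusted p below 0.05 over all 22626 probe sets. Every other tissue had equal weight in the mean of the 4 other tissues. The probe sets of Apoa1, Hamp, Hnf4a, Pltp, Acta2, Adgrg1 and Mup3 are of a design that may read related transcripts. In bulk RNA, levels cannot tell fewer cells of a type from less RNA per cell.

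The samples labelled liver carried the defining genes of hepatocytes. Alb on chromosome 5, the gene of serum albumin, read 19661 to 24134 (median 21268) in the 6 liver samples, against 183 to 1708 (median 534) in kidney, 98.9 to 143 (median 124) in hypothalamus, 566, 295 and 135 in testis and 102, 191 and 151 in ovary. Apoa1 on chromosome 9, the main apolipoprotein of HDL, read 20301 to 25827 (median 23081) in liver, against 37.3 to 296 (median 80.2) in kidney, 53.1 to 81.2 (median 66) in hypothalamus, 76.4, 37.7 and 25.7 in testis and 385, 283 and 348 in ovary. Cps1 on chromosome 1, the enzyme that brings ammonia into the urea cycle, read 13851 to 15255 (median 14707) in liver, against 170.4 to 258 (median 209) in kidney, 194 to 249.5 (median 217) in hypothalamus, 261, 166 and 140.4 in testis and 148, 153 and 163 in ovary. For all 3 genes the 6 liver samples lay above all 18 others. Alb differed from the mean of the 4 other tissues by 6.22 ± 0.30 (limma adjusted p = 5.99e-14), Apoa1 by 7.22 ± 0.19 (adjusted p = 1.12e-18) and Cps1 by 5.95 ± 0.09 (adjusted p = 3.88e-23). The Alb readings of the kidney samples spread most, with 1708 in Kidney Male 3 and 1278 in Kidney Female 1, against 98.9 to 143 in hypothalamus.

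In liver, 2986 genes were higher than the mean of the 4 other tissues (24.1% of the 12393) and 5920 were lower (47.8%). The median difference over all genes was -0.20. All arrays share a common 2% trimmed mean of the intensity, and their medians ran from 167.2 to 194.1 in liver, against 178 to 205.2 in kidney, 233.2 to 276 in hypothalamus, 163.3 to 190.8 in testis and 229.5 to 256.1 in ovary. Of the probe sets called, 32.4% were higher in liver. With the log2 values of each array centred on their median this share was 49.9%, and with quantile normalization it was 42.7%, so the balance of higher to lower calls depends on the scaling. Median centring moved the median difference over all genes to -0.01, and smaller differences are best read against that shift. The 98 genes of the plasma protein lists described below held 5.6% to 6.36% of the summed intensity of a liver sample, against 0.331% to 0.407% in kidney, 0.293% to 0.344% in hypothalamus, 0.158% to 0.19% in testis and 0.305% to 0.346% in ovary.

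Between tissues taken one by one, 2609 genes were higher in liver than in kidney (21.1%) and 3577 lower (28.9%). Against hypothalamus 3370 were higher (27.2%) and 5413 lower (43.7%), against testis 4161 were higher (33.6%) and 4092 lower (33.0%), and against ovary 2308 were higher (18.6%) and 5079 lower (41.0%). A gene higher than in each of the 4 tissues in separate tests was found 1066 times (8.6%), and a gene lower than in each 1061 times (8.56%). By at least 1 on the log2 scale against every tissue, 531 genes were higher (4.28%) and 144 lower (1.16%). The 6 liver samples lay above all 18 others for 746 genes (6.02%) and below all of them for 628 genes (5.07%).

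The 20 genes furthest above every other tissue were led by Ahsg. Ahsg, the gene of the plasma glycoprotein fetuin-A, read 19811 to 23419 (median 21876) in liver, against 7.05 to 74.1 (median 20.8) in kidney, 5.65 to 7.29 (median 6.19) in hypothalamus, 63.1, 34.8 and 5.73 in testis and 9.42, 57 and 35.2 in ovary. Its smallest difference from any of the 4 tissues was 8.09, the largest value of this measure among all genes, and it differed from their mean by 8.25 ± 0.15 (adjusted p = 1.29e-21). Fgb, the fibrinogen beta chain, read 18764 to 23264 (median 21140.3) in liver, against 2.4 to 154 (median 23) in kidney, 3.4 to 5.34 (median 3.67) in hypothalamus, 60.6, 11.6 and 24.6 in testis and 4.74, 2.55 and 2.1 in ovary, a difference of 8.36 ± 0.20 (adjusted p = 1.1e-19). Ces1c, a carboxylesterase secreted into mouse plasma, read 13147 to 16257 in liver and 3.55 to 28 in the 18 other samples. Apcs, serum amyloid P, read 11194 to 15859 in liver and 10.2 to 38.7 elsewhere. Akr1c6, an aldo-keto reductase that acts on steroids, read 10127 to 12666 in liver and 10.7 to 36.5 elsewhere, with the smallest SE of these genes, 7.42 ± 0.06 (adjusted p = 4.32e-27). The other 15 of the 20 genes with the largest smallest difference were Itih4, Ambp, Plg, Fgl1, Cyp3a25, Slc38a4, Rdh7, Cyp2d10, Mat1a, Apof, Asgr1, Cyp2c50, F2, Apoa2 and Fabp1, with smallest differences of 6.45 to 7.18. They encode plasma proteins (Itih4, Ambp, Plg, F2, Apof, Apoa2), the hepatokine Fgl1, the amino acid carrier Slc38a4, the asialoglycoprotein receptor subunit Asgr1, the methionine adenosyltransferase Mat1a, the fatty acid binding protein Fabp1 and enzymes of steroid, retinoid and drug oxidation. Of the 20, Cyp2c50 varied most among the livers and read 4412, 8211 and 12261 in Liver Male and 4150.1, 9563 and 9434 in Liver Female.

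**Figure D1:**
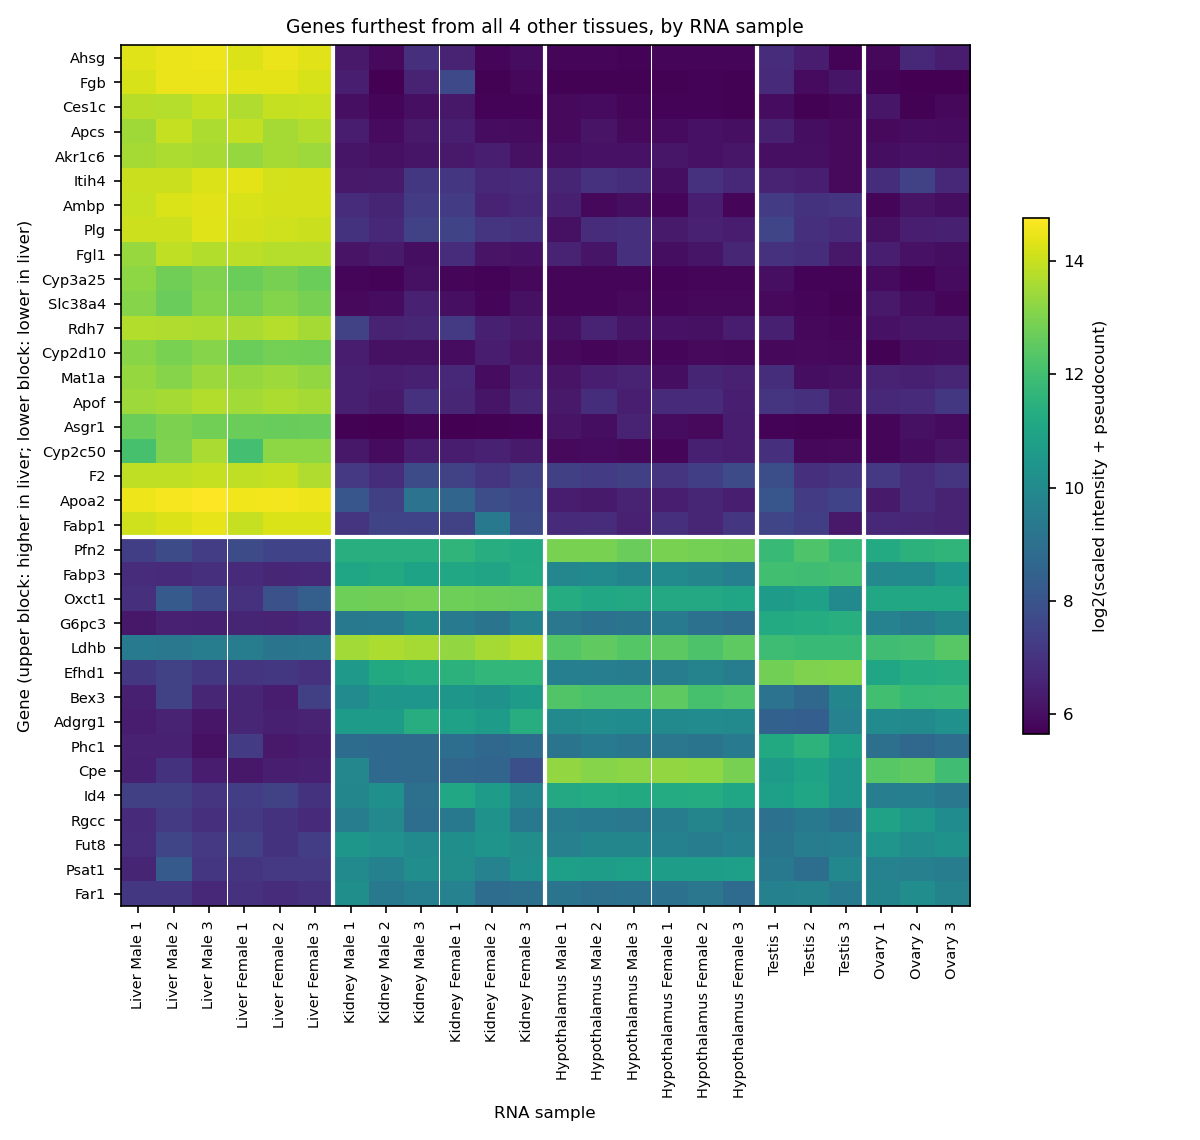
Heat map of log2(scaled intensity + pseudocount) for the 20 genes furthest above (upper block) and the 15 genes furthest below (lower block) all 4 other tissues, with 1 column per RNA sample and liver on the left. The 6 liver columns stand apart from the other 18 in both blocks, and Cyp2c50 is dimmer in Liver Male 1 and Liver Female 1 than in the other 4 livers.

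Genes were then grouped by what their products do, and for each list the members with a probe set were counted. Among carriers and inhibitors of plasma, all 28 measured members were higher than the mean of the other tissues, with a median difference of 5.83, and all 28 were also higher than in each of the 4 tissues. Afm, the vitamin E-binding afamin, had the smallest difference from kidney in this list, with 6389.9 to 8633 in liver and 1102 to 2446 in kidney (1.97 ± 0.13, adjusted p = 2.41e-11). Ceruloplasmin, the copper carrier encoded by Cp, read 13462 to 17539.7 in liver and 323 to 2098 in the other samples. Ttr, the thyroid hormone carrier transthyretin, is named after its values were seen: it differed from testis by 7.56, but from hypothalamus by 0.63 (adjusted p = 0.0157).

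All 21 lipoprotein genes were higher than the mean (median 5.29), and 17 were higher than in each tissue. Apoa5, a regulator of plasma triglyceride, read 9867 to 14017 in liver and 45.8 to 124 elsewhere. The exceptions included the lipid transporter Abca1, which read 1911 to 3093 in liver, against 2246 to 2666 in ovary (-0.02 ± 0.22, adjusted p = 0.947), and the phospholipid transfer protein Pltp, with a difference from hypothalamus of -0.14 ± 0.18 (adjusted p = 0.52). Against ovary 17 of the 21 were higher and 1 was lower, so every exception, Pltp among them, was not called higher than in ovary.

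In the coagulation list 23 of 23 were higher (median 5.17) and 22 were higher than in each tissue. The fibrinogen chains Fga and Fgg read 16619.6 to 19862 and 17272 to 20111 in liver, and their highest readings elsewhere were in kidney, 512 to 722 for Fga and 101 to 364 for Fgg. The protein S gene Pros1 was the exception, with 683 to 1023 (median 911) in liver, against 779, 888 and 799.8 in ovary (0.07 ± 0.11, adjusted p = 0.615). Complement genes were higher in 16 of 16 cases (median 4.8), also against each tissue. C4bp, Mbl2 and C9 read 5874 to 9179, 8947 to 11119 and 8162 to 12338 in liver, and 13.9 to 67.8, 67 to 211 and 44.8 to 157 in the other samples, while C2, a protease of the classical pathway, differed from kidney by 0.91 ± 0.22 (adjusted p = 0.0019). The acute phase list, which shares members with these lists, had 23 of 23 higher (median 5.76) and 21 higher than in each tissue. Hepcidin, the iron hormone encoded by Hamp, read 7253 to 12539.5 in liver and 118 to 256 elsewhere.

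Nitrogen metabolism was high in liver, in part together with kidney. All 7 urea cycle genes were higher than the mean (median 3.28). Otc, which makes citrulline, read 6009 to 7553 in liver and 16.5 to 66.7 elsewhere, and Arg1, which releases urea, read 12066 to 14910.1 in liver, against 351, 207 and 230.0 in ovary and 5.58 to 23.3 in kidney. Argininosuccinate lyase, encoded by Asl, read 3009 to 4488 (median 4202) in liver and 3405 to 4149.8 (median 3787) in kidney and did not pass the test between them (0.10 ± 0.14, adjusted p = 0.581), whereas its difference from hypothalamus was 4.06 ± 0.14 (adjusted p = 3.16e-17). The list of amino acid breakdown had 32 of 33 members higher (median 3.68). Its median difference was 1.34 against kidney and 4.06 against ovary, and 4 of its members were lower in liver than in kidney. The glycine methyltransferase Gnmt read 14648 to 18842 in liver, 549.7 to 1216 in kidney and 8.84 to 11.7 in hypothalamus. Hpd, of tyrosine breakdown, read 15652 to 17963 in liver and 1664 to 9615 in kidney. Ivd, of leucine breakdown, was lower in liver than in kidney (-0.81 ± 0.11, adjusted p = 3.63e-06), with 1444 to 1754 in liver and 1935 to 3877 in kidney. Kynu, of tryptophan breakdown, was not called against the mean (0.01 ± 0.15, adjusted p = 0.948) and read 25.5 to 120.4 in liver and 23.8 to 112 elsewhere.

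All 15 genes of glucose and glycogen metabolism were higher than the mean (median 2.94), but only 9 were higher than in kidney, 2 were lower than in kidney, and the median difference from kidney was 0.61. Pck1, the first committed enzyme of gluconeogenesis, read 2956 to 5399 (median 4948) in liver and 2635 to 6045 (median 4659.5) in kidney, so the groups overlapped (0.06 ± 0.18, adjusted p = 0.837), while hypothalamus read 1.45 to 3.67. The glucose transporter Slc2a2 read 4236 to 6050.0 in liver, 2613 to 3081 in kidney and 23.7 to 97.1 in hypothalamus. Gckr, which binds and inhibits glucokinase, stood apart from every tissue, 2201 to 3113 in liver against 70.2 to 178 elsewhere, as did the glycogen phosphorylase Pygl, 4289 to 5056 in liver against 105 to 910.0 elsewhere.

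Bile acid genes were higher in 20 of 20 cases (median 3.92), and 18 were higher than in each tissue. The uptake carriers Slc10a1 and Slco1b2 read 5729 to 9139 and 3963 to 5297 in liver, against 61.1 to 157 and 26.2 to 83.9 in the other samples. Slc27a5, the bile acyl-CoA synthetase, read 8219 to 10759 in liver and 79.2 to 205 elsewhere. Slc27a2, a very long chain acyl-CoA synthetase, was not called against kidney (-0.09 ± 0.11, adjusted p = 0.54). Cyp7b1, of oxysterol hydroxylation, read 693 to 1509.9 in liver and 89.7 to 3781 in kidney, where male samples read 3532, 1472 and 3781 and female samples 89.7, 131 and 121.

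Of the 43 genes of cytochrome P450 and other oxidases, 42 were higher than the mean and 1 was lower (median 4.3), and 34 were higher than in each tissue. Cyp2a12, a steroid hydroxylase, read 5886 to 9342 in liver, and testis, with 370.0, 686 and 50.4, came next. The lower one was Cyp1b1 (-1.25 ± 0.10, adjusted p = 2.07e-10), an oxidase of polycyclic hydrocarbons and oestrogens, with 156 to 256 in liver and 2424, 2333 and 2885 in ovary. Conjugating enzymes were higher in 24 of 28 cases and lower in 2 (median 2.31), with 7 lower in liver than in kidney. The glucuronosyltransferases Ugt2b5, Ugt2a3 and Ugt2b1 differed from the mean by 6.52, 5.25 and 5.21, against -0.20 for the median gene. The glutathione transferase Gstm5 was lower in liver than in each tissue and read 701 to 935 in liver, 4336 to 5255 in kidney and 19153, 18265 and 14478 in testis. Mgst3 was lower than the mean (-0.39 ± 0.10, adjusted p = 0.00132), a call that median centring ends, and higher than in testis (0.81 ± 0.14, adjusted p = 3.7e-05).

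Fatty acid oxidation and ketone genes were higher in 21 of 23 cases and lower in 1 (median 1.8). Only 10 were higher than in kidney, where the median difference was 0.18. The peroxisomal enzymes Ehhadh and Acaa1b read 2183 to 4553 and 8046 to 12024 in liver, against 1914 to 5718 and 4521 to 8373 in kidney and 35.9 to 63.1 and 22.5 to 50.6 in hypothalamus. The gene lower in liver was Oxct1, the enzyme that lets tissues use ketone bodies. It read 68.7 to 289.7 (median 175) in liver, against 6372 to 7329.9 (median 6903) in kidney, 2087 to 2469 (median 2207) in hypothalamus, 1560.1, 1799 and 975 in testis and 2179, 2119.7 and 2179 in ovary (-3.70 ± 0.17, adjusted p = 2.58e-14), and all 6 livers lay below all 18 other samples.

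Synthesis of fatty acids and cholesterol was less uniform, with 20 of 31 members higher and 5 lower (median 0.70). Median centring gave 24 higher and 3 lower, and quantile normalization 20 and 4. Against ovary 8 were higher and 10 lower, with a median of -0.20. The desaturases went opposite ways. Scd1 read 6449 to 14853 in liver and was higher than in each tissue, while Scd2 read 169 to 426 (median 212) in liver, against 487 to 1569 (median 794) in kidney, 8151 to 9999 (median 9318) in hypothalamus, 782, 1236 and 2304 in testis and 5038, 5615 and 5821 in ovary, and was lower than in each (-3.28 ± 0.19, adjusted p = 1.44e-12). The elongase Elovl2 read 2122 to 3225 in liver, with testis closest at 1273, 1614 and 1169. Insig2, which holds back sterol-driven transcription, read 4573 to 7106 in liver and 651 to 1663 elsewhere. The malic enzyme Me1 was lower than the mean (-0.88 ± 0.09, adjusted p = 8.42e-09) and higher than in hypothalamus (0.74 ± 0.10, adjusted p = 1.67e-06).

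Receptors, circulating factors and iron genes were higher in 26 of 28 cases (median 2.92). Mst1, macrophage-stimulating protein, read 1514 to 2377 in liver and 11 to 80.1 elsewhere. The receptors Insr and Il6ra were not called, though both were higher with median centring or quantile normalization (0.06 ± 0.10, adjusted p = 0.632, and 0.23 ± 0.11, adjusted p = 0.0652). Marker genes of hepatocytes near the portal vein were higher in 11 of 11 cases (median 4.83) and those of hepatocytes near the central vein in 13 of 15, with 1 lower (median 2.09). Among the latter genes Rgn, Cyp1a2, Gulo and Lect2 differed from the mean by 6.33, 6.03, 5.65 and 5.52, and Lgr5 was not called (-0.15 ± 0.13, adjusted p = 0.311). Markers of fetal liver were higher in 1 of 5 cases and lower in 3 (median -0.95). Afp, the fetal counterpart of albumin, read 70.3 to 189 in liver and 116, 117 and 79.1 in testis, and the growth factor Igf2 read 65.3 to 84.5 in liver and 183 to 1391 elsewhere.

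**Figure D2:**
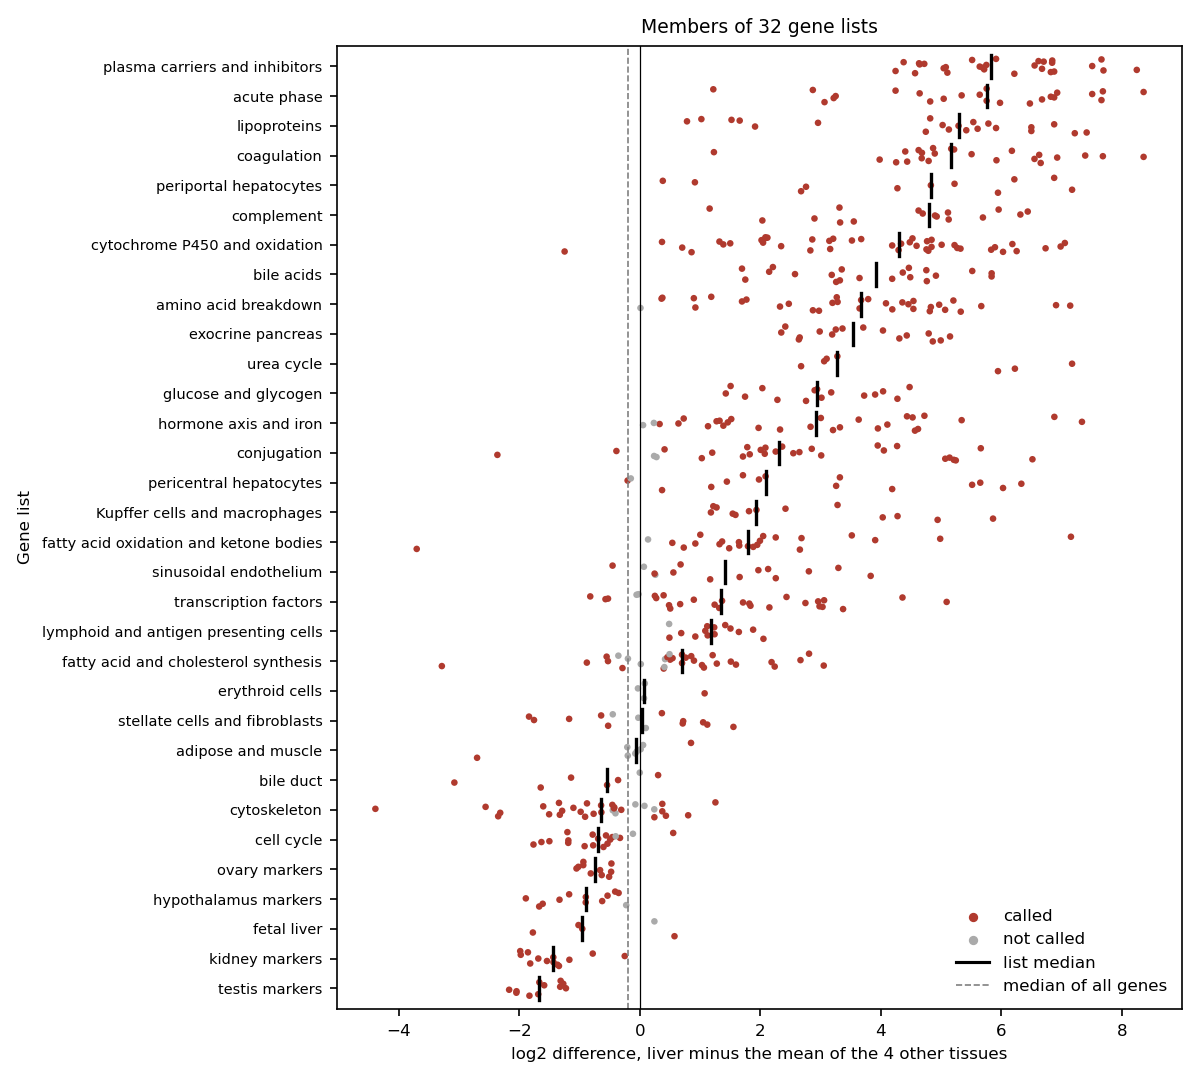
Each point is 1 gene with its log2 difference, liver minus the mean of the 4 other tissues (horizontal axis), in 1 of 32 gene lists (rows, ordered by the list median, black bar). Red points were called and grey ones were not, and the dashed line marks the median of all genes, -0.20. Plasma protein lists have medians above 4, and markers of testis, kidney, hypothalamus and ovary lie below 0.

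**Figure D3:**
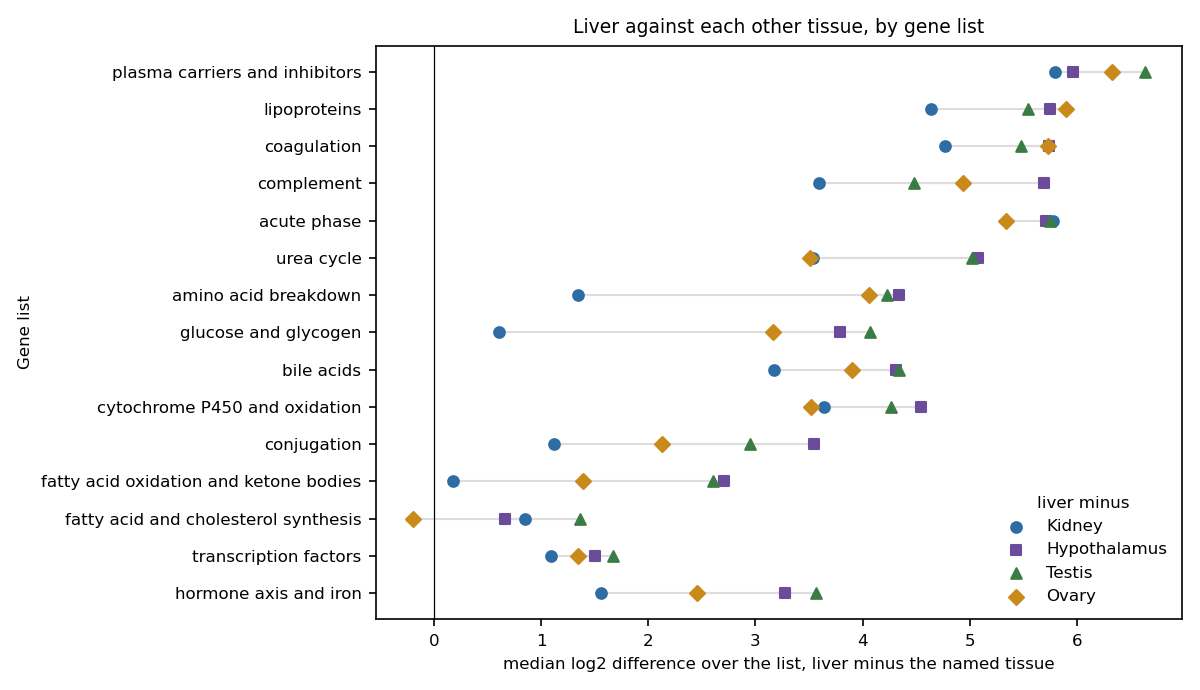
Median log2 difference over the members of a list (horizontal axis), liver minus kidney, hypothalamus, testis or ovary, for 15 lists of liver functions (rows). For glucose and glycogen the median against kidney is 0.61, and for fatty acid oxidation it is 0.18, the lowest of the 4 tissues in both rows.

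Of 28 transcription factors with a probe set, 23 were higher than the mean and 3 lower (median 1.34), and 13 were higher than in each tissue. Nr1i3, the receptor CAR that induces drug-metabolizing enzymes, read 1646 to 2943 (median 1868) in liver, against 8.62 to 16.4 (median 10.4) in kidney, 7.99 to 13.3 (median 9.96) in hypothalamus, 15.5, 18 and 14.9 in testis and 18.5, 10.9 and 17.2 in ovary (5.09 ± 0.09, adjusted p = 1.97e-21). The FOXA factors, which open chromatin at liver genes, were all 3 higher than in each tissue. Foxa3 read 1059 to 1635 in liver and 64.3 to 159 elsewhere, and Foxa2 read 797 to 1431 in liver and 76.4 to 357 elsewhere. Foxa1 was dimmer, 132 to 301 in liver and 109 to 154 in hypothalamus, the next in order. Creb3l3, Cebpa, Nr0b2, Nr1h3, Nr1i2, Mlxipl, Onecut1 and Rxra were also higher than in each tissue. Cebpa, of the C/EBP family, read 4385 to 7681 in liver, 863 to 1738 in kidney and 1823, 2625 and 2299 in ovary. Other factors were not called against kidney or were lower than in ovary. Hnf4a, which activates many hepatocyte genes, read 3362 to 4318 (median 3639.8) in liver and 4199 to 5444 (median 4893) in kidney (-0.37 ± 0.17, adjusted p = 0.0807), and 63.3 to 185 in hypothalamus. The bile acid receptor Nr1h4 read 964 to 1412 in liver and 540.3 to 1941 in kidney (0.14 ± 0.16, adjusted p = 0.517). Nr5a2, which acts on bile acid genes in liver and on steroid genes in ovary, read 588 to 967 in liver and was lower than in ovary, 2951, 2309 and 2924 (-1.83 ± 0.19, adjusted p = 3.12e-08). Gata4 showed the same order, 334 to 465 in liver and 1168, 1146 and 1338 in ovary. The 3 lower ones were Rora (-0.57 ± 0.17, adjusted p = 0.00502), Esr1 (-0.53 ± 0.14, adjusted p = 0.00163) and Dbp (-0.82 ± 0.36, adjusted p = 0.0498). The call of Dbp was lost in 28 of 40 alternatives, among them 19 of the 24 that leave out 1 sample. Rora was not called without hypothalamus (-0.11, adjusted p = 0.666) or in female samples alone, and Esr1 not in male or female samples alone or in the technical replicate arrays alone. In female samples 0 of the 28 were lower. Dbp, a clock-controlled factor, read 315, 734 and 165 in Liver Male and 168, 2095 and 149 in Liver Female.

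Promoter windows of 300 bases, from 250 before to 50 after each RefSeq gene start of build GRCm38.p6, were searched on both strands for the letters of sites these factors are known for. Windows were found for 425 of the 531 genes higher than in each tissue by at least 1 log2, and for 27025 genes in all. The 531, called liver genes here, include 15 genes of the exocrine pancreas list described below. A gene was counted once, if any of its windows held the letters. The letters GTTAAT and, after any base, ATT are a shortened form of the HNF1 site. They were in 2.35% of the 425 liver genes, 0.405% of the 9882 array genes with a window and 0.47% of all 27025 genes. The full site, with AAC after these letters, was in 0 of the 425 liver genes and in 3 of all genes. The letters CAAAGTCCA, for HNF4, were in 2.59% of liver genes, 0.708% of array genes and 0.555% of all genes. TGTTTAC or TGTTTGC, for FOXA, were in 15.8%, 8.08% and 9.47%, and TTGCGCAA or TTGCNNAAT, for C/EBP, in 6.35%, 2.56% and 2.92%. Among the 120 genes with a window that were lower than in each tissue by at least 1 log2, the shares were 0, 0, 6.67% and 3.33%. With the windows of a gene averaged, the median share of G and C was 52.7% in liver genes, 61% in the lower genes and 52.8% in all genes. A match of letters is a description and shows no binding, and the motif pairs do not exclude each other. The stretches below are shown because they place these letters in genes of the lists, with the matched letters in capitals and 50 bases on either side, 5′ to 3′ on the gene's strand. Such stretches were written out for 13 genes, and not all are printed. Those not printed are in Cp, Hgfac and Prodh2, with the shortened HNF1 letters, and in Sult1b1 and the pancreas gene Cela2a, with the HNF4 letters. Windows on 1 chromosome were passed over when the stretches were written out, so genes there could not appear. In Hc and Igfbp1 the capitals are the reverse complement of the HNF1 letters. They were chosen for holding the letters, after the values of the genes were known. The first 4 hold the shortened HNF1 letters, in C4bp, Hc (complement C5), Afm and Igfbp1 (an IGF-binding protein), whose differences from the mean were 6.44, 5.13, 4.38 and 4.62.
C4bp, chr1:130661623-130661732, minus strand, first capital 64 bases before the start: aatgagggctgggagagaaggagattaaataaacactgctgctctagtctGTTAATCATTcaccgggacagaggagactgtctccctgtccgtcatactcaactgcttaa
Hc, chr2:35061431-35061540, minus strand, 78 bases before: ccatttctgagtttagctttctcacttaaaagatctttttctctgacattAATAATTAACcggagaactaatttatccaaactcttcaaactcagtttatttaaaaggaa
Afm, chr5:90518761-90518870, plus strand, 138 bases before: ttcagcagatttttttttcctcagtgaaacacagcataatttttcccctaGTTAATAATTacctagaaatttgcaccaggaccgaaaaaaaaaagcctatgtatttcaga
Igfbp1, chr11:7197677-7197786, plus strand, 60 bases before: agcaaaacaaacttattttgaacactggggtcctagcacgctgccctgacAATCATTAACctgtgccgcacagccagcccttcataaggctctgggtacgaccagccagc
The other 4 hold the HNF4 letters, in the P450 genes Cyp8b1 (bile acid 12-alpha hydroxylation), Cyp2c70, Cyp3a11 and Cyp3a16, with differences of 4.76, 5.90, 6.19 and 1.50.
Cyp8b1, chr9:121916314-121916422, minus strand, 67 bases before: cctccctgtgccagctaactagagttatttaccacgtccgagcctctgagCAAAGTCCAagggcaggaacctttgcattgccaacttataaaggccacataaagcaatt
Cyp2c70, chr19:40187292-40187400, minus strand, 64 bases before: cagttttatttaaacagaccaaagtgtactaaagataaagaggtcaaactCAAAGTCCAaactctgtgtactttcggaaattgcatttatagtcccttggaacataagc
Cyp3a11, chr5:145879905-145880013, minus strand, 109 bases before: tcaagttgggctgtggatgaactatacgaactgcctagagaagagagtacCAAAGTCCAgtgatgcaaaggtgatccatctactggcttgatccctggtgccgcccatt
Cyp3a16, chr5:145469764-145469872, minus strand, 99 bases before: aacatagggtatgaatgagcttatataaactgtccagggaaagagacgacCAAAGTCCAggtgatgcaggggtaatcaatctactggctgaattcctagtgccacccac
In Cyp3a11 and Cyp3a16, both on chromosome 5, the capitals begin 109 and 99 bases before the start.

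Some genes high in liver were not called against 1 other tissue. Most often this was kidney, with 300 genes (2.42%) higher in liver than in the other 3 tissues and not called against kidney, ahead of ovary with 214 (1.73%), hypothalamus with 82 and testis with 79. A gene that was not called may still differ. Against kidney these included, beside Slc27a2 and Pck1, Rdh16f2, a retinol dehydrogenase, with 4252 to 6583 in liver and 3286 to 6958 in kidney, and Ttc36, with 9865 to 12616 in liver and 7114 to 10155 in kidney, while testis, the next tissue in order, read 206, 183 and 159. Cyp4a14, of fatty acid omega-oxidation, read 3129.5 to 5884 in liver and 594 to 9189 in kidney. Against hypothalamus they included Ndrg2, 4881 to 6028 in liver and 4389 to 5313 in hypothalamus, against 634 to 916 in kidney, and Got1, the cytosolic aspartate aminotransferase, 3149.8 to 5813 in liver and 4227 to 5163 in hypothalamus. Against testis they included Reep6, of the endoplasmic reticulum, 2959 to 4242 (median 3746) in liver and 3904, 4571 and 5706 in testis, and the efflux pump Abcc3, 1846 to 3459.8 in liver and 2209.7, 1813 and 2128 in testis. Against ovary they included Thrsp, a factor of lipid synthesis, 1151 to 4187 in liver and 2474, 4057 and 2999 in ovary, the epoxide hydrolase Ephx2, 3502 to 6026 in liver and 4685, 6426 and 5886 in ovary, and the transcription factor Cebpb, 1493 to 2229 in liver and 1785, 1482 and 1885 in ovary.

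The genes furthest below every other tissue were led by Pfn2, a profilin that binds actin. It read 109 to 167 (median 132) in liver, against 2332 to 3085 (median 2616) in kidney, 6511 to 7719 (median 7507) in hypothalamus, 3513, 4792 and 3590.3 in testis and 2344, 2837 and 3120.5 in ovary, and its difference closest to 0 was -3.86, against kidney (-4.39 ± 0.09 from the mean, adjusted p = 6.57e-21). Fabp3, the fatty acid binding protein of heart and muscle, read 50.4 to 72.4 (median 62.1) in liver, against 1893 to 2409 (median 2129.6) in kidney, 716 to 977 (median 869) in hypothalamus, 4068, 3969 and 4134 in testis and 933, 969 and 1406 in ovary (-4.00 ± 0.08, adjusted p = 9.16e-21). For both genes the livers lay below all other samples. Fabp1, above, ran the opposite way. The lactate dehydrogenase subunit Ldhb read 521 to 688 in liver and 3476 to 13466 elsewhere. G6pc3, the glucose-6-phosphatase of tissues other than liver, read 27.7 to 56.7 in liver and 432 to 2604 elsewhere. Psat1, of serine synthesis, read 49.1 to 256 in liver and 441 to 1742 elsewhere, and Cpe, the carboxypeptidase that processes peptide hormones, 27.3 to 79.8 in liver, 186 to 877 in kidney and 7558 to 10038 in hypothalamus. The other genes of the 15 were Oxct1, described above, Efhd1, Bex3, Adgrg1, Phc1, Id4, Rgcc, Fut8, which adds core fucose to glycoproteins, and Far1, of ether lipid synthesis, with differences from the mean of -2.56 to -4.13.

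In the cytoskeleton list 20 of 31 members were lower and 6 higher (median -0.64), against 47.8% lower and 24.1% higher over all genes. With median centring 17 were lower and 8 higher, and with male samples alone, which leaves out ovary, 11 were lower and 2 higher. In male samples alone 7982 of all 22626 probe sets were lower, a share close to that of the list, and 4455 were higher. With quantile normalization or female samples alone 3 were higher. Myl9, a myosin light chain of smooth muscle, read 129 to 191 in liver and 4098, 3695 and 3688 in ovary, and S100a10, which was higher than the mean by 1.26 ± 0.10 (adjusted p = 3.7e-10), was not called against kidney or ovary. Cell cycle genes were lower in 16 of 19 cases and higher in 1 (median -0.69), and in 12 and 1 with median centring. With female samples alone, which leaves out testis, 7 were lower. Of all 22626 probe sets 9070 were lower in that setting, a share close to that of the list. With all samples, 15 of the 19 were lower than in testis and 18 lower than in ovary, while against kidney 0 were lower and 1 was higher. Compared with hypothalamus, 8 were higher and 0 lower (median 0.32), beside 27.2% higher and 43.7% lower over all genes. The mitotic kinase gene Bub1 read 6.27 to 23.8 in liver, 4.94 to 16.7 in kidney, 6.96 to 17.4 in hypothalamus, 1191, 989 and 2007 in testis and 251, 175 and 182 in ovary. The higher one was Tyms, thymidylate synthase, 46.1 to 103 in liver and 12.2 to 63.2 elsewhere, and it was not called when the median over its probe sets was taken (0.09, adjusted p = 0.451). Markers of the other tissues were low in liver, as their choice implies. Their summed intensity was 1315 to 1629 in liver, against 78195 to 87645 in kidney, for 13 kidney markers, 1917 to 2247 in liver, against 46250 to 51084 in hypothalamus, for 12 hypothalamus markers, 448 to 634 in liver, against 103401 to 140779 in testis, for 11 testis markers, and 763 to 1068 in liver, against 6165 to 8742 in ovary, for 10 ovary markers.

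Genes of cells other than hepatocytes differed by cell type. All 13 Kupffer cell and macrophage markers were higher than the mean (median 1.94), and 11 were higher than in each tissue. Cd5l, secreted by macrophages, read 5120.1 to 9891 (median 7479) in liver, against 52.4 to 93.3 (median 67.2) in kidney, 52.4 to 94.1 (median 78.6) in hypothalamus, 90.1, 64.9 and 78.9 in testis and 158, 79.9 and 63.9 in ovary (5.86 ± 0.11, adjusted p = 2.24e-21). The Kupffer cell lectin Clec4f and the complement receptor Vsig4 read 3099 to 6315 and 2229 to 4635 in liver and 36 to 187 and 90.5 to 199.9 elsewhere. Of 14 markers of sinusoidal endothelium 11 were higher and 1 lower (median 1.41), and quantile normalization and median centring each gave 13 higher and 1 lower. Clec4g, Dnase1l3, Oit3 and the hyaluronan scavenger receptor Stab2 were higher than in each tissue, by at least 2.10 (Stab2 against kidney), while the VEGF receptor Flt1, shared by most endothelium, was lower than the mean (-0.45 ± 0.08, adjusted p = 3.84e-05). Without hypothalamus Flt1 was not called, and 10 of the 14 markers were higher and 0 lower. Stellate cell and fibroblast genes were higher in 6 of 14 cases and lower in 5 (median 0.04), or in 3 with male samples alone. Reln, secreted by stellate cells in mouse liver, was higher than in each tissue, with 1037 to 1719 in liver and 916 to 1204 in hypothalamus, whereas Col1a1 and Acta2, genes of activated fibroblasts and smooth muscle, differed from the mean by -1.76 ± 0.22 (adjusted p = 3.04e-07) and -1.84 ± 0.13 (adjusted p = 2.54e-11). Bile duct markers were higher in 1 of 7 cases and lower in 5 (median -0.54), and Epcam read 28.7 to 52.2 in liver and 1666 to 3141 in kidney. Against kidney 1 was higher and 4 lower, and against ovary 1 was higher and 5 lower. Against hypothalamus 4 were higher and 2 lower (median 0.40), and against testis 2 were higher and 2 lower. Of 4 erythroid genes 1 was higher (median 0.08), and of 8 genes of fat and muscle 1 was higher and 1 lower (median -0.06).

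Genes of the exocrine pancreas, which makes digestive enzymes, were higher in liver in 16 of 16 cases (median 3.54), and 15 of them were higher than in each tissue. Ctrb1, chymotrypsinogen, read 7222, 2152 and 11718 in Liver Male and 8496, 4016 and 4111 in Liver Female, against 34 to 322 (median 165) in kidney, 33.6 to 125 (median 83.6) in hypothalamus, 384, 75.9 and 126 in testis and 101, 35.1 and 70.7 in ovary (5.15 ± 0.32, adjusted p = 4.56e-12). Cpa1, a procarboxypeptidase, read 3304, 631 and 3950.4 in Liver Male and 3023, 1492 and 1557 in Liver Female, and 3.59 to 102 in the other samples. The summed intensity of the 16 genes was 52266, 13794 and 68054 in Liver Male and 56767, 24927 and 23806 in Liver Female, against 3226 to 6311 in kidney, 1432 to 1832 in hypothalamus, 1682 to 3832 in testis and 1915 to 2621 in ovary. The members moved together across the 6 livers. Liver Male 2 was the lowest liver for all 16 genes, and Liver Male 3 was the highest for 12 of them. The ratio of the highest to the lowest liver ran from 2.9 for Zg16, a granule protein, to 11.2 for Sycn, syncollin. The spread over the livers, a median SD of 0.942 on the log2 scale, was the largest of the 32 lists and compares with 0.139 for plasma carriers and 0.19 for all genes. No defining member was at 0 in liver, where the dimmest reading of Cpa1 was 631. Of these genes 15 count among the 1066 above, and the part of pancreas RNA in the other results was not tested.

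**Figure D4:**
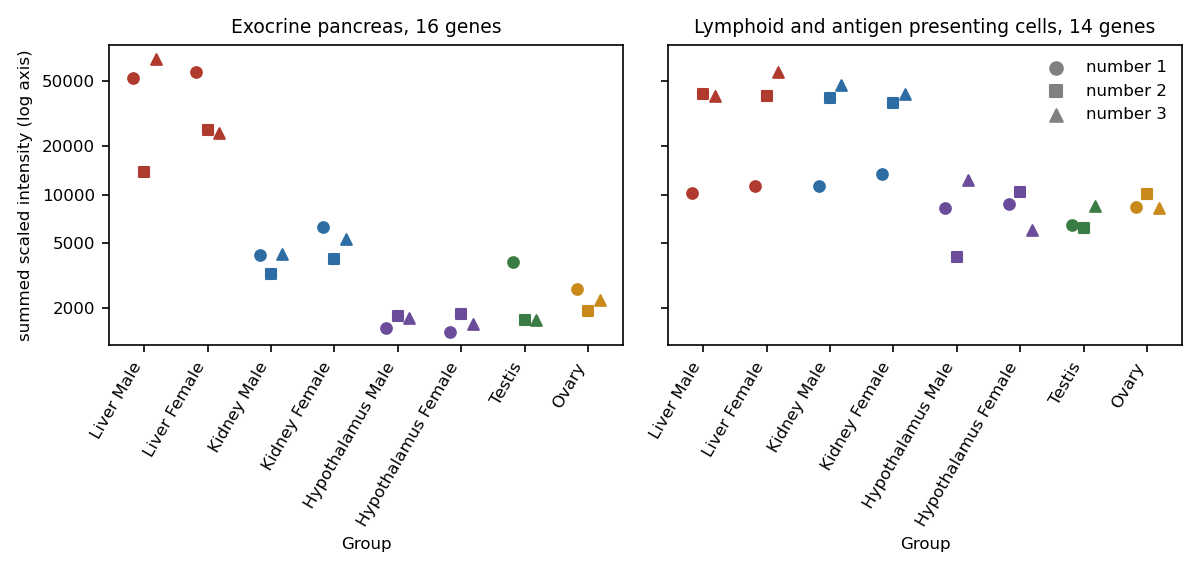
Summed scaled intensity (vertical log axis) of 16 exocrine pancreas genes (left) and of 14 genes of lymphoid and antigen presenting cells (right), for each RNA sample by group; symbols give the sample number in the labels. For pancreas genes the livers range from 13794 to 68054, above all other samples. For lymphoid genes Liver Male 1 and Liver Female 1 read 10238 and 11208, below the other 4 livers, and the number 1 kidneys also read below the other kidneys.

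Lymphoid and antigen presenting cell genes were higher in 13 of 14 cases (median 1.18), but in 7 of 14 with male samples alone. They were higher than in kidney in 6 of 14 cases (median 0.36) and higher than in each tissue in 6, and were divided among the livers by sample number. Cd74, the invariant chain of MHC class II, read 2639.6 in Liver Male 1 and 3107 in Liver Female 1, against 15155, 16104, 14374 and 17302 in the other livers. The summed intensity of the list was 10238 in Liver Male 1 and 11208 in Liver Female 1 and 40492 to 56392 in the other 4 livers. In kidney it was 11274 in Kidney Male 1 and 13424 in Kidney Female 1 and 36724 to 47077 in the other 4. For 13 of the 14 genes, 92.9%, both number 1 livers lay below the other 4, against 10.1% of all genes. The same was found for 10 of 13 Kupffer cell genes (76.9%), 8 of 14 stellate cell and fibroblast genes (57.1%) and 9 of 19 cell cycle genes (47.4%). It was also found for 12 of 31 cytoskeleton genes (38.7%), 11 of 31 genes of fatty acid and cholesterol synthesis (35.5%) and 0 of 16 pancreas genes. Marco, a scavenger receptor of macrophages, read 540.2, 2818 and 1859 in Liver Male and 750.2, 2625 and 3996 in Liver Female.

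The number 1 samples stood apart in other genes as well, in liver and in kidney. In 36 genes both lay at least 1 log2 below the other 4 livers and in 4 at least 1 above, while the number 2 livers did so in 0 and 1 and the number 3 livers in 0 and 1. Kidney had 21 genes below and 7 above in the number 1 samples, 1 and 0 in number 2 and 6 and 0 in number 3. The labels do not say what a number stands for. Cyp2c37, an arachidonic acid oxidase, had the widest gap and read 328 in Liver Male 1 and 390.2 in Liver Female 1, against 4722, 5223, 6472 and 4867 in the others, all above the 11.5 to 61.9 of the other tissues. Cxcl9, an interferon-induced chemokine, chosen after its values were seen, read 715 and 837 in the number 1 livers and 3647 to 5198 in the others. Over all genes, both number 1 livers lay above the other 4 more often than below, in 2298 genes (18.5%) against 1247 (10.1%). They lay above in 13 of 28 transcription factors (46.4%) and 10 of 33 amino acid genes (30.3%). With both left out, 13 of 13 Kupffer cell genes were higher (median 2.25) and 14 of 14 lymphoid genes (median 1.72), 22 of 31 genes of fatty acid and cholesterol synthesis were higher and 4 lower, and 12 of 19 cell cycle genes were lower, a choice made after the data were seen.

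Of the genes higher than in each tissue, those with the widest range over the 6 livers also included acute phase genes. The acid glycoproteins Orm2 and Orm3 read 584, 3667 and 2580.2 and 134, 614 and 666 in Liver Male and 6943, 2263 and 3544 and 1436, 371 and 836 in Liver Female. Nnmt, which methylates nicotinamide, read 73.5, 1016 and 832 in Liver Male and 2577, 1135 and 1107 in Liver Female. Prtn3, a protease of neutrophils, read 56.4, 1078 and 509 in Liver Male and 1504, 509 and 898 in Liver Female. The sulfotransferases Sult2a2 and Sult3a1 read 776, 3919 and 2771 and 204, 1374 and 351 in Liver Male and 6319, 7619 and 8387 and 1374, 2930.3 and 1000.4 in Liver Female, and the sexes did not overlap for Sult2a2.

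The difference between sexes was compared between liver and the mean of kidney and hypothalamus, as male minus female. It was more positive in liver for 5 genes (0.0403%) and more negative for 7 (0.0565%). Hsd3b5, a male-biased steroid reductase of mouse liver, read 1147, 181 and 811 in Liver Male and 5.43, 11.4 and 8.45 in Liver Female, and at most 15 in kidney or hypothalamus, an interaction of 3.49 ± 0.40 (adjusted p = 0.000536). Mup3, a major urinary protein, read 8182, 5057 and 6982 in Liver Male and 2758, 3357 and 2135 in Liver Female (1.33 ± 0.21, adjusted p = 0.00724). The fatty acid elongase Elovl3 read 671, 329 and 703 in Liver Male and 185, 137 and 189.5 in Liver Female (1.52 ± 0.26, adjusted p = 0.0205). Cyp4a12a, an omega-hydroxylase, read 2623, 1260.3 and 3757 in Liver Male and 121, 66.9 and 169 in Liver Female, and was also higher in the male samples of kidney, with 3799, 1684 and 4486 in Kidney Male and 264, 759 and 883 in Kidney Female (2.72 ± 0.48, adjusted p = 0.0208). Gsta2, a glutathione transferase, read 1421, 1267 and 1321 in Liver Male and 757, 1013 and 1313 in Liver Female, with 1913, 2287 and 1749 in Kidney Male and 5285, 6040.3 and 4697 in Kidney Female (1.18 ± 0.21, adjusted p = 0.0284).

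In the opposite direction, Cyp3a16, of the P450 family, separated the sexes in liver, with 9.83, 44 and 13.6 in Liver Male and 560.0, 351 and 163 in Liver Female, and at most 16.5 in kidney or hypothalamus (-2.48 ± 0.30, adjusted p = 0.000551). Its promoter stretch is printed above. For 4 other genes the sexes separated in kidney. Pzp, a plasma proteinase inhibitor, read 16413, 17694 and 20815 in Liver Male and 17006, 17954 and 17973 in Liver Female, whose values overlap, and 2557, 1196 and 2603 in Kidney Male and 181, 80.8 and 94.9 in Kidney Female (-1.92 ± 0.28, adjusted p = 0.00335). Acsm3, an acyl-CoA synthetase, read 1017, 639.9 and 735 in Liver Male and 708, 936 and 864 in Liver Female, and 7211, 1415 and 3869 in Kidney Male and 91.5, 63.8 and 65.8 in Kidney Female (-2.48 ± 0.44, adjusted p = 0.0208). Slc7a13, an amino acid carrier, read 93.4, 126 and 107 in Liver Male and 158, 120.2 and 133 in Liver Female, and 7469, 4958 and 6437 in Kidney Male and 644, 568 and 498 in Kidney Female (-2.11 ± 0.29, adjusted p = 0.0018). Ugt2b37, a glucuronosyltransferase, read 56.2, 42 and 30.4 in Liver Male and 13.5, 33.2 and 18.7 in Liver Female, and 4436, 1081 and 3005 in Kidney Male and 19.8, 6.14 and 29.2 in Kidney Female (-2.23 ± 0.35, adjusted p = 0.00724). Within a tissue, male and female samples of the same number deviated together, and with tissue and number as a block, 5 of these 12 genes were no longer called. The 5 were Acsm3 (blocked adjusted p = 0.0543), Cyp4a12a (0.0645), Mup3 (0.104), Gsta2 (0.126) and Slc22a26, an anion carrier named here for this loss (0.101). Over probe sets, 7 (0.0309%) were more positive and 9 (0.0398%) more negative in liver, and these counts rest on single samples. Without Liver Male 1 there were 4 more positive ones, without Liver Male 2 there were 14 more positive and 14 more negative, and without Kidney Male 2 there were 22 more negative. Elovl3 was not called without Liver Male 1, Liver Male 3 or Liver Female 2, Acsm3 not without sample 2 or 3 of either liver group, Cyp4a12a not without Liver Male 1, Liver Male 3, Liver Female 1 or Liver Female 2, and Gsta2 not when any of 10 single samples was left out.

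**Figure D5:**
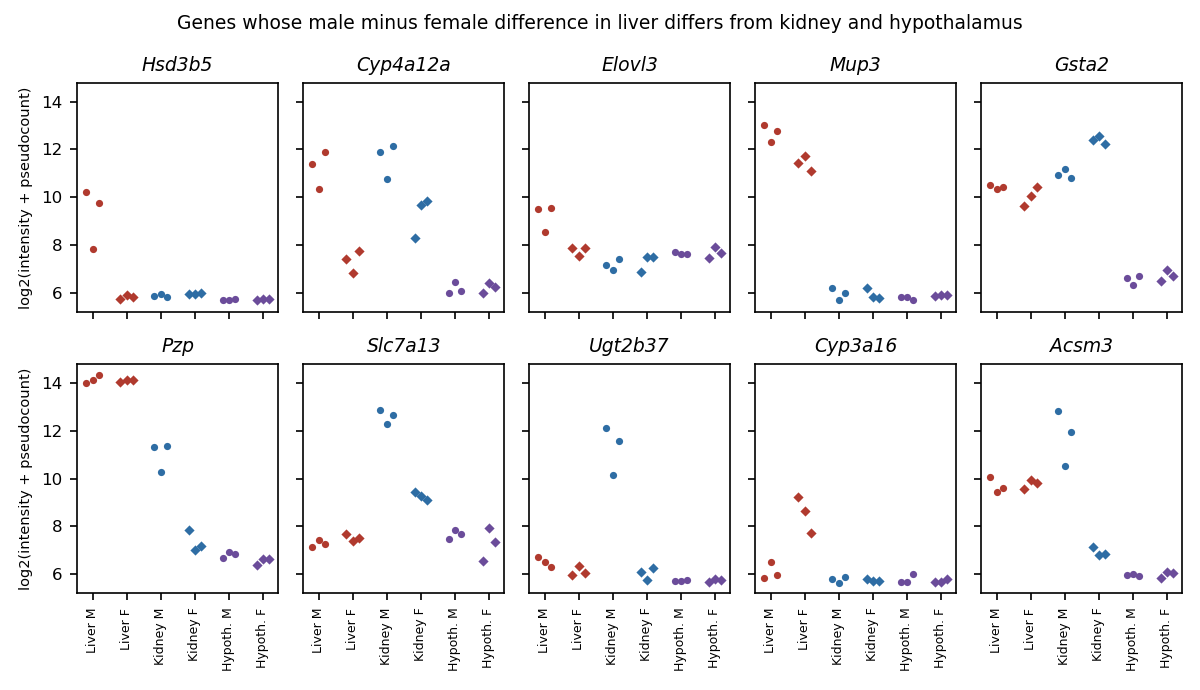
log2(scaled intensity + pseudocount) in every RNA sample of Liver, Kidney and Hypothalamus, male (circles) and female (diamonds), for 5 genes whose male minus female difference was more positive (top) and 5 for which it was more negative (bottom) in liver than in the mean of kidney and hypothalamus. Hsd3b5, Cyp4a12a, Elovl3, Mup3 and Cyp3a16 separate the sexes in liver. Pzp, Slc7a13, Ugt2b37, Acsm3, Gsta2 and again Cyp4a12a separate them in kidney.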

How the data were processed

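The authors deposited linear Affymetrix intensities of 22690 probe sets on 48 arrays. Their 2% trimmed mean, taken from the values, was 500.11 to 500.23 on every array. Software, background step and build: not given in the sources used here. Probe sets below background carry no flag. Precision is limited by how many RNA samples there are, 3 per group. After 64 controls were left out, log2(intensity + 48.3), the 20th percentile of all values, was averaged over the 2 arrays of each RNA sample, whose correlation was 0.9656 to 0.99. Symbols come from the platform annotation, updated by Entrez ID for 20351 probe sets. Of 22626 probe sets, 20380 carry 1 symbol, 691 several and 1555 none.

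Means of 8 groups were fitted with limma 3.58.1 in R 4.3.3 (residual df 16, prior df 4.942) without a filter on dim probe sets, and contrasts with Benjamini-Hochberg adjustment gave all adjusted p-values. The script was tested on simulated data. Nothing says that pools of a group came from separate animals, so p-values measure the spread between these RNA samples.

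The comparison, the lists and the genes were chosen with earlier results of these data known. Genes named are the 3 markers, the 20 furthest above and the 15 furthest below every tissue, up to 4 highest and up to 2 lowest of each list, 5 per tissue that were not called against it, 5 per direction of the sex contrast, the 10 with the widest range over livers and called transcription factors. Exceptions are marked, and of these genes not all are described.

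Alternatives changed the pseudocount, filter, normalization, arrays, moderation, block, sexes, tissues and samples. Male and female samples of the same number deviated together within liver (r = 0.469, 0.124 and 0.43) and kidney (0.507, 0.327 and 0.563), less so in hypothalamus (0.307, 0.1 and 0.241). Liver and kidney of the same number also deviated together (r of 0.095 to 0.417 in 12 pairs, 0.122 to 0.417 within a sex), against -0.302 to 0.188 for different numbers. For liver and testis r was -0.006 to 0.163 for the same number, above 0 in 5 of 6 pairs. For different numbers it was -0.141 to 0.064, above 0 in 2 of 12. Same and different numbers gave -0.01 to 0.093 and -0.07 to 0.026 with ovary, and -0.097 to 0.074 and -0.106 to 0.145 with hypothalamus. The pairing comes from the data, not the labels. Summaries and figures were made in Python 3.11.15.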

Additional observations from a re-analysis of the deposited data

Results flagged for a closer look

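Dixon's ratio was taken for 190 sets of 6 liver values, of 158 genes and 32 list sums. In 13 sets 1 liver lay further from its nearest neighbour than the 95% value of 0.625 allows. Chance gives about 1 in 20 for independent sets not chosen by their spread. These sets are not independent, and some genes were chosen for a wide range over the livers, so that rate does not apply. Liver Male 2 was the liver apart in 6 of the 13 sets. It was low for Asl (3009) and Slc10a1 (5729) and high for Afp (189), Cpe (79.8), Psat1 (256) and Tyms (103). Liver Male 1 was low for Fgl1 (10491), Nnmt (73.5) and Thrsp (1151). Liver Female 3 was low for F2 (13156) and Insr (182), Liver Female 2 low for Igf2 (65.3) and Liver Female 1 high for Foxa2 (1431).

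Of the sex contrasts named, the difference between liver and the mean of kidney and hypothalamus, male minus female on the log2 scale, was 3.49 for Hsd3b5, 2.72 for Cyp4a12a, 1.52 for Elovl3, 1.33 for Mup3 and 1.18 for Gsta2 among those more positive in liver. Among those more negative it was -2.48 for both Acsm3 and Cyp3a16, -2.23 for Ugt2b37, -2.11 for Slc7a13 and -1.92 for Pzp.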

How the results depend on the processing

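Counts here are of probe sets, of which 4977 were higher and 10390 lower in liver than the mean of the other tissues. Median centring gave 7624 higher, 1100 lower than in each tissue, 9980 higher and 6636 lower than in hypothalamus, and 8176 higher and 5491 lower than in ovary, and quantile normalization gave 5678 higher than in ovary, so the scaling sets the balance of these counts. Lower than in each tissue by at least 1 log2 were 465 with 0.25 times the pseudocount, 76 with 4 times and 553 in female samples alone, against 245. Male samples alone gave 2733 higher and 3948 lower than in kidney. For the sex contrast, 4 were higher with 0.25 times the pseudocount, 4 higher and 5 lower with first arrays only, and 3 higher and 4 lower without the number 1 livers, an alternative chosen after the data were seen. The causes were not tested.

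Leaving out 1 sample gave 4762 to 5028 higher and 9746 to 10593 lower than the mean, 1578 to 1687 higher and 1556 to 1792 lower than in each tissue, and 4 to 14 higher and 7 to 22 lower in the sex contrast. The replicate block by number gave 5080 higher and 10537 lower than the mean, and 4577 higher and 6178 lower than in kidney, against 4409 and 5980, and of the 158 genes it changed the call against kidney of 1, Rora, which the text does not use. With the sexes of a number averaged, 4421 were higher and 9227 lower. The replicate block within tissue, also added later, gave 6 higher and 11 lower in the sex contrast and lost 5 genes, given beside them. Of the 158 genes tried under these alternatives, 0 reversed a called direction. Array values hold no counts, so for dim genes the signal over background sets the limit.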
